A study of Homo sapiens with 36 samples.

Results

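RUNX1, RUNX2 and RUNX3 are the human transcription factors of the RUNX family, and CBFB encodes CBFβ, the partner protein they share. These 4 genes were taken by matching the Ensembl identifiers of the count tables to their symbols, and they are 4 of the 63677 genes listed; each of them had enough reads to be among the 19180 genes tested. RNA was sequenced from A549, a human lung adenocarcinoma cell line, either left untreated or grown with the cytokine IL-1β at 1 ng/ml. The exposed cells were sampled on days 6, 15 and 21 of treatment. Further samples followed on days 6, 15 and 30 after removal of the cytokine from cells treated for 21 days, and untreated cells were sampled beside them each of the 6 times. Each of the 12 groups held 3 libraries, which the titles mark as replicates A to C (numbered 1 to 3 here). How the replicates were kept apart is not said there, so p-values measure the spread between these 36 libraries of 1 cell line.

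RUNX proteins bind DNA through the conserved Runt domain. CBFβ does not touch DNA itself but holds the Runt domain in its binding form and protects RUNX proteins from degradation. RUNX1 is best known from blood cell formation, RUNX2 from bone and cartilage, where it drives osteoblast differentiation, and RUNX3 from T cells, sensory neurons and epithelia. RUNX2 is also expressed in invasive carcinomas, and the RUNX family can be activated from a distal and a proximal promoter. In A549 cells all 4 genes were transcribed, and the question addressed was whether the change of RUNX2 under IL-1β, and its persistence after IL-1β was removed, was shared by its paralogs and its cofactor.

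On GRCh37, RUNX1 (ENSG00000159216) lies at chr21:36160098-37376965 on the minus strand, RUNX2 (ENSG00000124813) at chr6:45295894-45632086 on the plus strand, RUNX3 (ENSG00000020633) at chr1:25226002-25291612 on the minus strand and CBFB (ENSG00000067955) at chr16:67062887-67134961 on the plus strand. In GENCODE v44lift37, no exon base of these genes was shared with another gene, while the introns of RUNX2 overlap SUPT3H on the opposite strand. RUNX2-AS1 and RUNX3-AS1, annotated antisense to RUNX2 and RUNX3, held 89 and 13 counts in all libraries together, against 10022 and 13183 for the sense genes. Another noncoding gene opposite RUNX2, ENSG00000271857, held 445 counts. FKSG68, on the same strand as RUNX1, held 1104 against 23899 for RUNX1.

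The start regions of RUNX2 and RUNX3 are shown because these genes moved in opposite directions. The windows come from RefSeq (GRCh38.p14), run from 250 bases before to 50 bases after the transcription start, and each matched GRCh37 exactly once. They were searched on both strands for the RUNX site TGTGGT, whose other strand reads ACCACA, and for the AP-1 site TGANTCA. No other spelling of the RUNX site was searched or marked, so the RUNX counts and shares below cover these letters alone. Matches are in capitals, and the sites do not overlap. The distal window of RUNX2 lies at chr6:45295817-45296116 (plus strand) and that of RUNX3 at chr1:25291452-25291751 (minus strand), both on GRCh37.
RUNX2 distal: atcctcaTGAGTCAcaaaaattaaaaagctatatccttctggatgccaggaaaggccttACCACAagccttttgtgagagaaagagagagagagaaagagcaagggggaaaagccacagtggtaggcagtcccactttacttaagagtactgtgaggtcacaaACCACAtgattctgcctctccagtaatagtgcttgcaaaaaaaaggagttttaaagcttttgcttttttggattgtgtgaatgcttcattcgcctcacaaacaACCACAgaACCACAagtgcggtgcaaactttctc
RUNX3 distal: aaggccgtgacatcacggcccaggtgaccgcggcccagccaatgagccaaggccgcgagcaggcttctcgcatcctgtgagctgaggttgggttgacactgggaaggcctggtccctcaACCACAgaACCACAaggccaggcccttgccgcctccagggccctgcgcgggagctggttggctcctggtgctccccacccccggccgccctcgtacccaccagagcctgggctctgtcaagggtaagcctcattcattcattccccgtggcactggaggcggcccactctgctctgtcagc
The RUNX2 window held 4 RUNX sites, starting at positions -191, -87, 17 and 25 from the first transcribed base, and 1 AP-1 site at -243. The RUNX3 window held 2 RUNX sites, at -131 and -123. Of 35116 RefSeq promoter windows of this length, 13.1% held at least 1 RUNX site, 1.31% held 2 or more, and 7.71% held an AP-1 site. The longest stretch shared by both windows was 18 bases long and spanned a pair of RUNX sites.
shared stretch: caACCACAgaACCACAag
It ran from 15 to 32 in RUNX2 and from -133 to -116 in RUNX3, and no window of another gene held it. The proximal windows of RUNX2 and RUNX3 and the window of RUNX1 held neither site, and none of the 5 windows of these genes held an NF-κB site, which 5.91% of all windows did. The RUNX1 window lies inside the gene, away from its upstream end. No window at that upstream end was searched, and CBFB had no window. A match is a stretch of letters, and counts per gene do not separate transcripts of the distal and the proximal promoter.

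The libraries held 9116032 to 23570026 reads on genes. Of these 36 libraries, 11 had 11.8% to 24.6% of these counts on the 37 mitochondrial genes, against 5.61% to 7.75% in the other 25. These were 6 control and 5 IL-1β libraries, 8 of them after withdrawal. Replicate 2 also accounted for 8 of the 11, so the fits without replicate 2 and without these libraries are not separate checks. Leaving them out keeps 1 control library each at days 6 and 15 after withdrawal, which is then assumed to vary like the other groups. Results are therefore also given without these 11 libraries. CXCL8, a chemokine gene that IL-1β induces, had 69.2 to 181 CPM with IL-1β and 0.57 to 2.92 CPM in the controls of the same days. At day 6 after withdrawal, previously exposed libraries held 2.29 to 2.66 CPM, still above their controls (0.258 to 1.47 CPM). They held 0.834 to 2.04 CPM at day 15 and 0.514 to 0.78 CPM at day 30. The controls of these days held 0.816 to 1.43 and 0.699 to 2.19 CPM. CPM are counts relative to the scaled library size. Of the 10 lung epithelial markers, KRT8, KRT18 and CDH1 had medians of 2183, 1096 and 187 CPM, whereas EPCAM, KRT19, SFTPB, SFTPC, NAPSA and NKX2-1 had medians under 1 CPM. The summed level of these markers ranged from 2903 to 7628 CPM in the controls and from 901 to 5145 CPM with IL-1β. Of 11 blood cell markers, 9 had medians under 1 CPM, PTPRC and CD3D among them at a median of 0, and the sums were 9.39 to 20.2 CPM in the controls and 7.34 to 30.8 CPM with IL-1β, mostly CD14 and ITGAM. The 7 fibroblast markers summed to 1.14 to 4.46 CPM in the controls and 1.43 to 3.48 CPM with IL-1β, and the 4 endothelial markers matched (PECAM1 was not) to at most 0.405 CPM. In bulk RNA, fewer cells of a type and less RNA per cell cannot be told apart, and the part of the epithelial markers in the results was not tested.

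Compared to the untreated control cells, RUNX2 rose with IL-1β at all 3 exposure time points and was still higher at all 3 time points after withdrawal. RUNX1 rose less, at days 15 and 21 of exposure. RUNX3 fell at days 15 and 21 of exposure and at day 6 after withdrawal. CBFB passed the test at no time point. Here a gene rose or fell at an adjusted p under 0.05 (edgeR's quasi-likelihood test, Benjamini-Hochberg over the 19180 genes), and it passed both thresholds where the fold change was also over 2. At day 6 of exposure 1 of the 4 genes rose, where 2.29% of all genes tested did. At days 15 and 21, 2 of the 4 rose against backgrounds of 3.32% and 3.31%, and 1 fell against 3.11% and 3.09%. At day 6 after withdrawal 1 rose against 1.62% and 1 fell against 0.996%. At days 15 and 30 after withdrawal RUNX2 alone was higher, against backgrounds of 0.85% and 0.683%, and none of the 4 was lower, against 0.511% and 0.626%. DESeq2's Wald test made the same calls for RUNX1, RUNX3 and CBFB at these 2 days, with none past the threshold, and at an unadjusted p under 0.05 only RUNX3 at day 15 after withdrawal would have been lower.

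**Figure D1:**
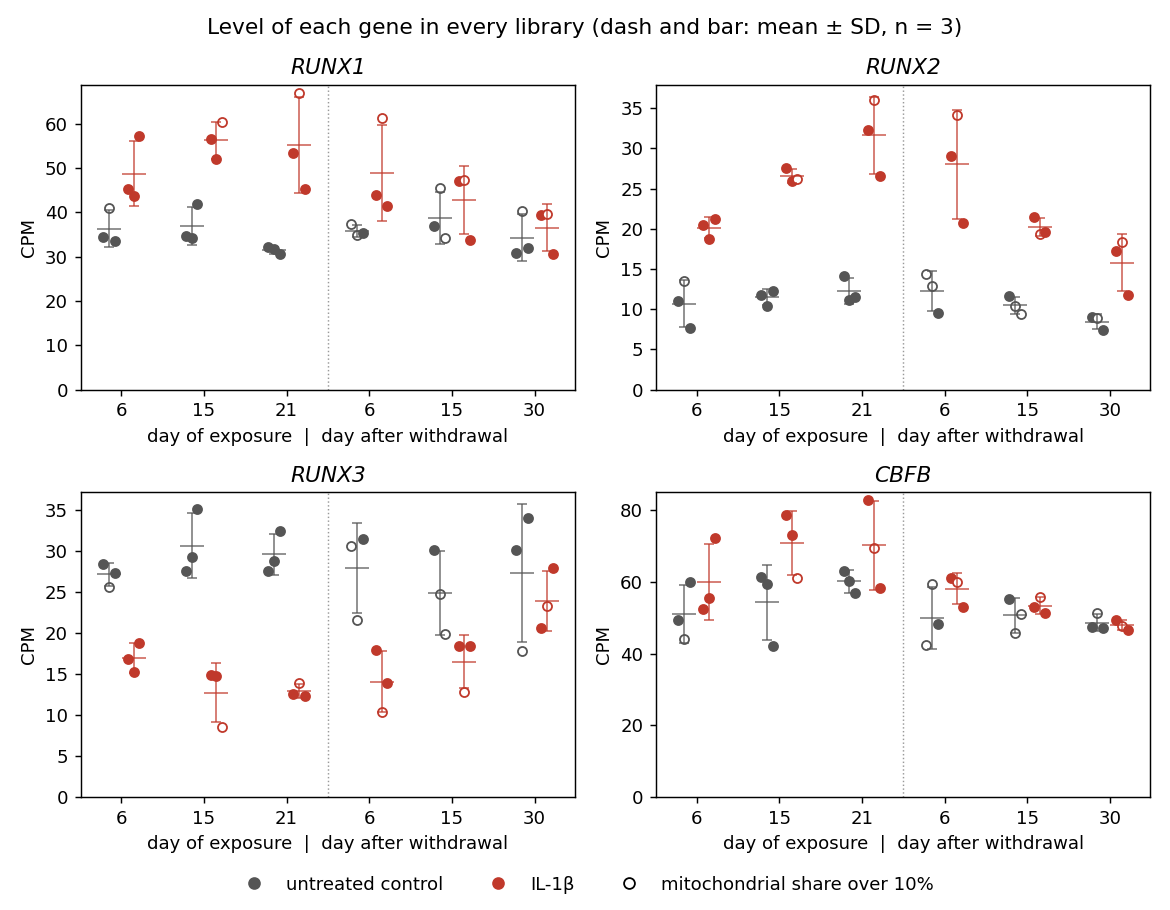
CPM of each gene in every library, with control libraries in grey and IL-1β libraries in red at each day of exposure and after withdrawal, dashes and bars giving mean ± SD (n = 3) and open points the 11 libraries with a high mitochondrial share. RUNX2 in IL-1β libraries lies above the controls at all 6 time points, RUNX3 lies below them until day 15 after withdrawal, and CBFB overlaps its controls throughout.

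RUNX2, the regulator of osteoblast differentiation, was the least abundant of the 4 genes per kilobase of exon in untreated cells. Its level in the control libraries was 10.98, 13.5 and 7.62 CPM at day 6, 11.8, 10.5 and 12.3 CPM at day 15, and 14.2, 11.2 and 11.5 CPM at day 21. With IL-1β it was 20.5, 18.7 and 21.3 CPM at day 6, 27.5, 26.0 and 26.2 CPM at day 15, and 32.3, 36.1 and 26.6 CPM at day 21. Every IL-1β library lay above every control library of its day, as in 10.6%, 11.5% and 13.8% of all genes tested. The log2 fold change was 0.92 ± 0.20 (SE) at day 6 (adjusted p = 0.00444), 1.21 ± 0.20 at day 15 (adjusted p = 0.000129) and 1.36 ± 0.20 at day 21 (adjusted p = 2.15e-05). On the linear scale this was 1.89-fold, 2.31-fold and 2.57-fold, so that days 15 and 21 passed both thresholds. Without replicate 1 the adjusted p was 0.302 at day 6 and 0.07 at day 15. The larger value at day 21 than at day 6 was not shown to differ from it (difference 0.45 ± 0.28, unadjusted p = 0.124), a test that 0.0104% of all genes passed.

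After withdrawal, RUNX2 in the control libraries was 14.4, 12.9 and 9.49 CPM at day 6, 11.6, 10.4 and 9.45 CPM at day 15, and 9.09, 8.88 and 7.38 CPM at day 30. In cells that had been exposed to IL-1β it was 29.1, 34.2 and 20.7 CPM at day 6, 21.5, 19.4 and 19.7 CPM at day 15, and 17.2, 18.4 and 11.7 CPM at day 30. The groups did not overlap at any of these days, which was also the case, in the same direction, for 5.51%, 6.02% and 6.78% of all genes tested. RUNX2 was 2.29-fold, 1.92-fold and 1.87-fold higher, with log2 fold changes of 1.20 ± 0.20 (adjusted p = 0.000515), 0.94 ± 0.20 (adjusted p = 0.0115) and 0.90 ± 0.20 (adjusted p = 0.0173). It was 1 of 43 genes (0.224% of those tested) that were higher at an adjusted p under 0.05 at all 6 time points. Without the libraries of high mitochondrial share the log2 fold changes were 0.83 at day 15 after withdrawal (adjusted p = 0.291) and 0.81 at day 30 (adjusted p = 0.0616), while day 6 stood at 1.41 (adjusted p = 0.00322). Without replicate 1 the adjusted p was 0.146, 0.562 and 0.71 at these 3 time points and without replicate 2 it was 0.0648, 0.218 and 0.47, whereas the log2 fold changes stayed between 0.81 and 1.30.

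RUNX1, the regulator of blood stem cell formation, ranged from 30.5 to 41.8 CPM in the 9 control libraries of the exposure period, with a median of 34.3 CPM. With IL-1β its levels were 45.3, 43.8 and 57.1 CPM at day 6, 56.6, 52.0 and 60.3 CPM at day 15, and 53.5, 66.8 and 45.3 CPM at day 21. All 9 libraries lay above the controls of their day, as in 10.6%, 11.5% and 13.8% of all genes tested in this direction. The log2 fold change was 0.43 ± 0.17 at day 6 (adjusted p = 0.231), 0.61 ± 0.17 at day 15 (adjusted p = 0.0263) and 0.81 ± 0.17 at day 21 (adjusted p = 0.00213), which is 1.75-fold at its largest and under the fold threshold. Neither rise was kept without each replicate in turn: the adjusted p at day 15 was 0.444 without replicate 1 and 0.0654 without replicate 3, and at day 21 it was 0.183 without replicate 1 and 0.0558 without replicate 2. The log2 fold changes in these fits stayed between 0.58 and 0.66 at day 15 and between 0.66 and 0.91 at day 21. The call at day 15 was also lost in a separate fit of each time point (adjusted p = 0.137) and with no filter on low counts (adjusted p = 0.0948). Without the libraries of high mitochondrial share both remained below 0.05, at 0.0118 and 0.00269, and day 6 reached 0.0223.

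After withdrawal the RUNX1 difference did not pass the test at any day, but with the high mitochondrial share as a covariate it passed at day 6 (0.51, adjusted p = 0.0223). The cells previously exposed had 43.9, 61.2 and 41.4 CPM at day 6, 47.0, 47.2 and 33.9 CPM at day 15, and 39.5, 39.7 and 30.5 CPM at day 30, while their 9 controls ranged from 30.7 to 45.4 CPM. The groups were still apart at day 6, as in 5.51% of all genes in this direction, and overlapped at days 15 and 30. The log2 fold changes were 0.45 ± 0.17 (adjusted p = 0.259), 0.14 ± 0.17 (adjusted p = 0.884) and 0.09 ± 0.17 (adjusted p = 0.909). Without replicate 2 the value at day 6 was 0.21, and without replicate 1 those at days 15 and 30 were 0.012 and -0.060.

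RUNX3, known from T cells and described as a tumour suppressor in several epithelia, was lower with IL-1β. Its control libraries held 28.5, 25.7 and 27.4 CPM at day 6, 27.6, 29.3 and 35.2 CPM at day 15, and 27.6, 28.8 and 32.5 CPM at day 21. With IL-1β they held 16.9, 15.3 and 18.9 CPM at day 6, 14.9, 14.8 and 8.59 CPM at day 15, and 12.6, 13.9 and 12.4 CPM at day 21. The groups did not overlap at any exposure day, as in 11.2%, 13.9% and 15.2% of all genes in this direction. The log2 fold change was -0.68 ± 0.23 at day 6 (adjusted p = 0.109), -1.26 ± 0.23 at day 15 (adjusted p = 0.000494) and -1.19 ± 0.23 at day 21 (adjusted p = 0.000852), so that RUNX3 passed both thresholds at days 15 and 21. The fall missed an adjusted p of 0.05 without replicate 3 at day 15 (0.0743) and without replicate 1 at day 21 (0.0773), and in a separate fit of day 15 (0.0561), with log2 fold changes of -0.93, -1.22 and -1.24. RUNX3 had also fallen at day 6 when the libraries of high mitochondrial share were left out (-0.69, adjusted p = 0.00204).

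After withdrawal, RUNX3 in previously exposed cells was 17.97, 10.4 and 13.96 CPM at day 6, 18.5, 12.8 and 18.4 CPM at day 15, and 20.7, 23.3 and 27.9 CPM at day 30. The corresponding controls were 30.7, 21.6 and 31.5 CPM, then 30.2, 24.8 and 19.9 CPM, then 30.2, 17.9 and 34.1 CPM. The groups stayed apart at days 6 and 15, as in 5.24% and 4.9% of all genes in this direction, and overlapped at day 30 (where 5.11% were apart), where the lowest control library was 1 of the libraries with a high mitochondrial share. RUNX3 was still lower at day 6 after withdrawal (-0.98 ± 0.23, adjusted p = 0.0139), and it did not pass at day 15 (-0.59 ± 0.23, adjusted p = 0.337) or day 30 (-0.20 ± 0.23, adjusted p = 0.859). The call at day 6 was lost on leaving out any 1 replicate (adjusted p 0.292, 0.0616 and 0.151), by total counts only (0.228) and in a separate fit (0.368), while the log2 fold changes without replicates 1, 2 and 3 were -1.12, -0.98 and -0.87. With the high mitochondrial share as a covariate RUNX3 was also lower at day 15 after withdrawal (-0.72, adjusted p = 0.0198). At day 30 the value was -0.041 without replicate 1, -0.41 without replicate 2 and -0.39 once the 11 libraries with a high mitochondrial share were left out.

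CBFB, which encodes the shared non-DNA-binding subunit, was the most abundant of the 4 genes per kilobase of exon, and its fold changes were the smallest during exposure. Its level was 42.1 to 63.1 CPM in the 9 control libraries of the exposure period and 52.3 to 82.8 CPM with IL-1β, with medians of 59.3 and 69.3 CPM. After withdrawal it was 42.3 to 59.3 CPM in the controls and 46.5 to 61.1 CPM in previously exposed cells, with medians of 48.2 and 53.0 CPM. Control and IL-1β libraries overlapped at all 6 time points. The log2 fold change was largest at day 15 of exposure, at 0.39 ± 0.16 (adjusted p = 0.172), and was 0.23 and 0.22 at days 6 and 21 and 0.22, 0.07 and -0.02 at days 6, 15 and 30 after withdrawal, with adjusted p from 0.71 to 0.979.

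**Figure D2:**
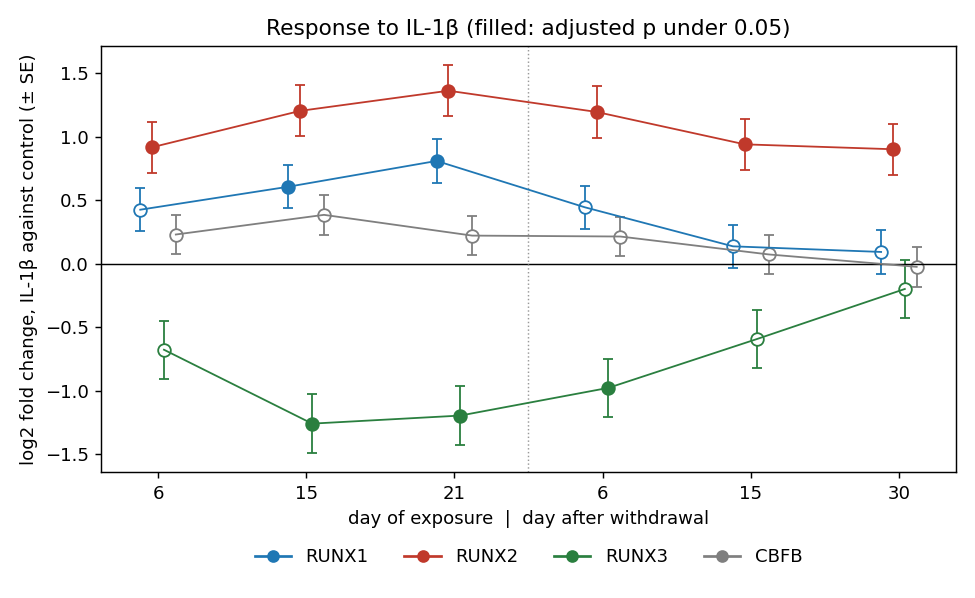
Log2 fold change of IL-1β against control (± SE) for the 4 genes at each day of exposure and after withdrawal, filled where the adjusted p was under 0.05. RUNX2 stays between 0.90 and 1.36, and RUNX1 and CBFB approach 0 after withdrawal. RUNX3 goes from -0.68 at day 6 to -1.26 at day 15 of exposure, and reaches -0.20 at day 30 after withdrawal.

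Ordered by mean level over the 12 groups, RUNX2 was lowest in the 6 control groups (8.45 to 12.3 CPM) and highest at day 21 of exposure (31.6 CPM), and its levels at day 30 after withdrawal (15.8 CPM) and at day 6 of exposure (20.2 CPM) stood between. Of the 11 neighbouring pairs in this order, 8 overlapped. For RUNX3 the order was turned, with the 6 IL-1β groups (12.8 to 24.0 CPM) below the 6 control groups (25.0 to 30.7 CPM), and 10 of the 11 neighbouring pairs overlapped. All 11 pairs overlapped for RUNX1 and for CBFB. Untreated cells of the last and the first collection passed the test for a difference in none of the 4 genes, by edgeR or DESeq2, and 0.0104% of all genes passed it. The lowest unadjusted p was that of RUNX2, which was 8.45 ± 0.934 CPM (SD, n = 3) in controls at day 30 after withdrawal and 10.7 ± 2.94 CPM at day 6 of exposure (log2 difference -0.34 ± 0.20, unadjusted p = 0.107).

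To ask whether RUNX2 responded differently from the other genes, its count was set against theirs within each library, a ratio that does not depend on how libraries are scaled. RUNX2 was chosen for this with earlier results known, and the counts are those already tested above. The p-values of the ratios are therefore not separate evidence for the calls of the single genes. The log2 ratio of RUNX2 to RUNX1 was -1.61 ± 0.261 (SD, n = 9) in the controls and -1.05 ± 0.227 with IL-1β over the 3 exposure days. After withdrawal it was -1.82 ± 0.295 and -1.03 ± 0.254. IL-1β and control thus differed by 0.56 while the cytokine was present and by 0.78 once it was gone (adjusted p = 0.000375 for each, exact two-sided permutation test within time points, adjusted over 6 tests). Here and for the ratios below, exposure and withdrawal were not tested against each other. The ratio was higher with IL-1β at all 6 time points, with no overlap at any of them.

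Against RUNX3 the ratio differed most. It was -1.35 ± 0.286 in the controls and 0.87 ± 0.530 with IL-1β during exposure, and -1.35 ± 0.455 and 0.23 ± 0.823 after withdrawal. Not corrected for length, RUNX2 thus had fewer counts than RUNX3 in every control library and more in every IL-1β library of the exposure days. Exposed and control libraries differed by 2.23 with the cytokine present (adjusted p = 0.000375) and 1.58 after withdrawal (adjusted p = 0.0005, both exact permutation tests). Day by day these differences were 1.63, 2.51 and 2.55 with IL-1β and then 2.18, 1.54 and 1.03 without it, and the groups overlapped at the last day alone.

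Relative to CBFB, RUNX2 was higher by 0.89 on the log2 scale during exposure (adjusted p = 0.0005) and by 0.91 after withdrawal (adjusted p = 0.000375, both exact permutation tests). The ratio was -2.26 ± 0.383 in the controls and -1.37 ± 0.246 with IL-1β during exposure, and -2.27 ± 0.320 and -1.37 ± 0.322 after withdrawal. The groups overlapped at day 6 of exposure and were apart at the other 5 time points. The smallest p these tests can give is 0.00025, and at a single time point, with 3 libraries against 3, it is 0.1. These tests and the SDs over 9 libraries count libraries of different days as independent. The labels do not say whether same-numbered libraries came from 1 culture sampled over time. If they did, only 3 cultures stood against 3, for which the smallest p is 0.1. Without the libraries of high mitochondrial share the differences after withdrawal were 0.82 against RUNX1, 1.70 against RUNX3 and 0.94 against CBFB (unadjusted p = 0.0185 for each, exact permutation test, the smallest p that the libraries left allow).

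**Figure D3:**
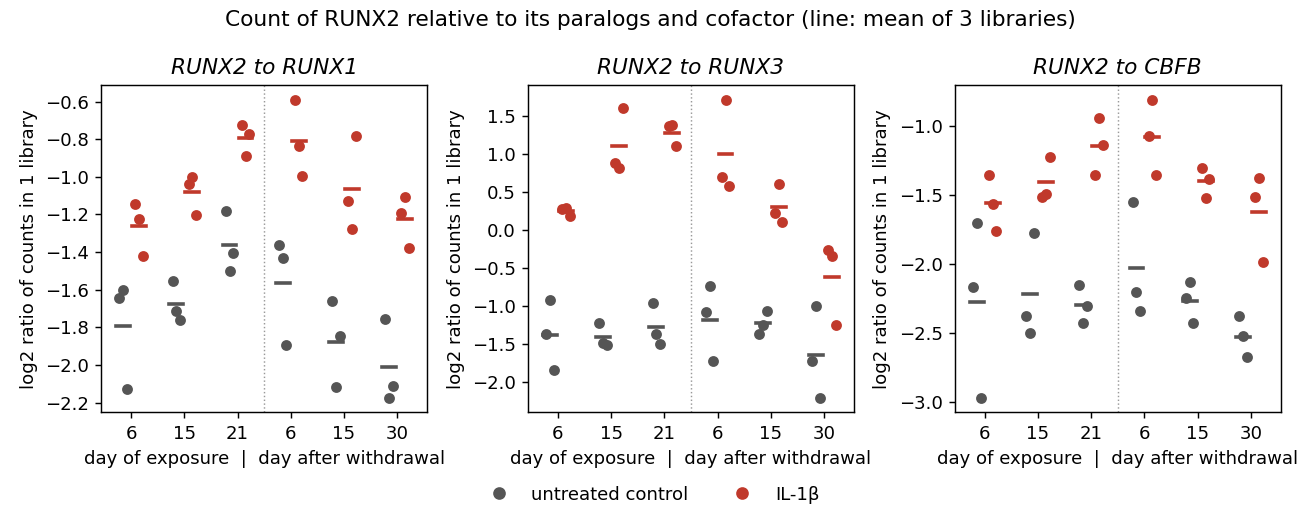
Log2 ratio of the RUNX2 count to the count of RUNX1, RUNX3 or CBFB in each library, control in grey and IL-1β in red, with lines at the means of 3 libraries. IL-1β libraries lie above the controls in all panels, with overlap for RUNX3 at day 30 after withdrawal and for CBFB at day 6 of exposure.

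As a share of the largest log2 fold change with IL-1β, RUNX2 kept 87.7%, 69.0% and 66.2% at days 6, 15 and 30 after withdrawal. RUNX1 kept 55.0%, 17.1% and 11.6%, and RUNX3 kept 77.6%, 47.1% and 15.7%. These shares are descriptions without a test, and none is given for CBFB, whose largest response did not pass the test. Shares were also computed within each replicate number, against its own largest response with IL-1β. For RUNX2 that was at day 15, 21 and 6 in replicates 1, 2 and 3. With these other denominators the values are not a spread around the shares above. RUNX2 kept 76.2% to 83.3%, 53.1% to 72.2% and 45.1% to 75.1%. RUNX1 kept 29.8% to 75.4%, -1.44% to 48.1% and -8.51% to 49.6%, and RUNX3 kept 57.8% to 99.97%, 5.59% to 90.9% and -36.3% to 48.0%, where a negative share is a response of the opposite sign. The range of RUNX2 thus overlapped that of RUNX3 at all 3 days and that of RUNX1 at day 30, and the fold changes behind the shares of RUNX1 at all 3 days and of RUNX3 at day 30 moved by over 1.5 times when libraries were left out, as given above. The change of the response from day 21 to day 30 after withdrawal was itself tested and passed for none of the 4 genes, by edgeR or by DESeq2. In edgeR's test it was -0.46 ± 0.28 for RUNX2 (adjusted p = 0.954, unadjusted p = 0.113), -0.72 ± 0.24 for RUNX1 (adjusted p = 0.31, unadjusted p = 0.00609), 1.00 ± 0.32 for RUNX3 (adjusted p = 0.26, unadjusted p = 0.00443) and -0.25 ± 0.22 for CBFB (adjusted p = 0.955, unadjusted p = 0.274). Of all genes, 0.73% passed this test. For RUNX3 the change passed without the libraries of high mitochondrial share (0.84, adjusted p = 0.0447).

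Levels of different genes were compared per kilobase of exon. In the 18 control libraries the mean was 11.3 CPM per kilobase for CBFB, 5.68 for RUNX3, 2.29 for RUNX1 and 1.34 for RUNX2. In the 18 IL-1β libraries it was 12.9 for CBFB, 3.30 for RUNX3, 3.09 for RUNX1 and 2.90 for RUNX2. Among the 3 RUNX genes, RUNX2 made up at most 16.0% of this level as the mean of any control group, and at most 19.2% in any control library. With IL-1β it made up 27.3% ± 1.4 (SD, n = 3) at day 6, 34.4% ± 1.6 at day 15 and 38.4% ± 1.1 at day 21, and after withdrawal 35.9% ± 4.7, 28.8% ± 0.9 and 21.1% ± 4.6. RUNX3 made up 57.1% to 63.1% in the control groups, 26.4% ± 2.3 at day 21 and 53.3% ± 8.1 at day 30 after withdrawal, while RUNX1 stood at 35.1% ± 1.9 and 25.7% ± 3.6. Scaled instead by the length of the MANE transcript, which is much shorter than all exons for RUNX1, RUNX2 made up 11.2% to 15.4% in the control groups and 31.8% ± 1.0 at day 21. On this scale RUNX1 made up 51.2% ± 2.0 at day 21 with IL-1β, more than RUNX2. It also led in the controls of day 15 after withdrawal (45.7% against 40.9% for RUNX3), while RUNX3 led in the other control groups. RUNX1 rather than RUNX3 ranked second to CBFB in the IL-1β libraries (8.05 against 3.80 CPM per kilobase, with RUNX2 at 4.28).

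**Figure D4:**
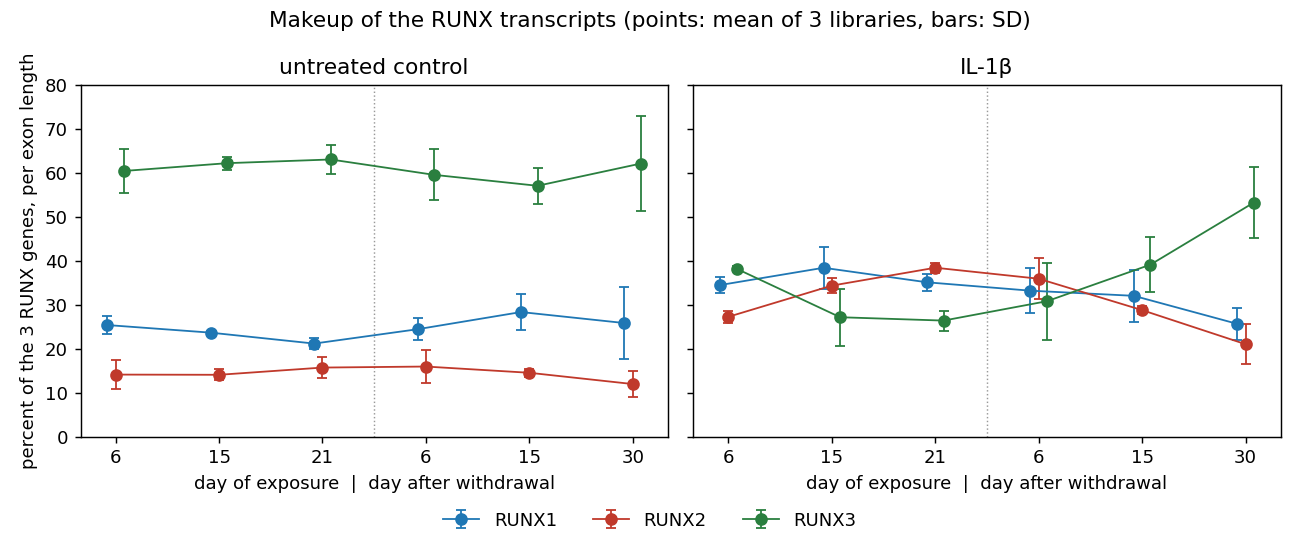
Share of each RUNX gene in the summed level of the 3 genes per exon length, as mean ± SD of 3 libraries, in controls (left) and with IL-1β (right) over the days of exposure and after withdrawal. By exon length RUNX3 leads in all control groups, and RUNX2 reaches 38.4% at day 21 of exposure.

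Beyond these genes, 92 listed partners, modifying enzymes and target genes of RUNX proteins were examined, of which 70 were tested. At days 6, 15 and 21 of exposure 5, 7 and 8 of the 70 were higher past both thresholds and 1, 1 and 2 were lower. Over all genes, 1.52%, 1.94% and 2.19% were higher and 1.25%, 2.3% and 2.06% lower. After withdrawal 2, 0 and 0 of the 70 were higher and 1 was lower at each day, against 1.08%, 0.594% and 0.433% of all genes higher and 0.725%, 0.36% and 0.464% lower. DESeq2 also gave 0 higher at days 15 and 30 after withdrawal, and at an unadjusted p under 0.05 in edgeR's test 8 and 6 of the 70 were higher. Without replicate 1, 3, 3 and 5 of the listed genes passed both thresholds during exposure and 0 at each day after withdrawal. The median log2 fold change of the 70 genes was between -0.03 and 0.05 at the 6 time points, and that of all genes tested was between -0.02 and 0.02. The genes past both thresholds at any time are described below by their roles.

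Of 16 coactivators and DNA-binding partners tested, JUN and ETS1 rose past both thresholds. At day 6 of exposure 2 of the 16 were lower at an adjusted p under 0.05, as 1.98% of all genes tested were. Neither of these passed both thresholds. JUN is a subunit of AP-1 and binds RUNX proteins, and ETS1 binds DNA cooperatively with RUNX1. JUN went from 21.5 ± 4.81 CPM (SD, n = 3) to 85.0 ± 17.6 CPM at day 21 (log2 fold change 1.98 ± 0.32, adjusted p = 9.27e-05) and was still higher at day 6 after withdrawal (1.45 ± 0.32, adjusted p = 0.00786). ETS1 went from 42.3 ± 3.97 to 105 ± 16.4 CPM at day 21 (1.31 ± 0.15, adjusted p = 5.1e-07). At day 30 after withdrawal JUN stood at 0.71 ± 0.32 (adjusted p = 0.511) and ETS1 at 0.50 ± 0.15 (adjusted p = 0.105).

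Of 18 corepressors tested, the TLE and histone deacetylase genes among them, 1 passed both thresholds. CBFA2T3, which encodes a corepressor of the ETO family, fell from 0.967 ± 0.160 to 0.247 ± 0.177 CPM at day 21, a log2 fold change of -2.00 ± 0.53 (adjusted p = 0.0176), with at most 26 counts in a library of that day. Of 13 modifying enzymes tested, 2 were higher at day 21 at an adjusted p under 0.05, as 3.31% of all genes tested were. Of these 2, SMURF2, a ubiquitin ligase that acts on RUNX proteins, passed both thresholds. SMURF2 rose from 41.1 ± 1.65 to 86.0 ± 20.7 CPM at day 21 (1.06 ± 0.27, adjusted p = 0.0103) and stood at 0.03 ± 0.27 at day 30 after withdrawal.

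Among 20 listed RUNX2 targets, 9 were tested. The bone and cartilage genes IBSP, BGLAP, COL10A1, ALPL, SP7, DMP1 and IHH were among the 11 that were not, with at most 6 counts in any library. SNAI2, which encodes the transcriptional repressor SLUG, went from 2.38 ± 0.709 to 22.3 ± 9.08 CPM at day 21 (3.23 ± 0.49, adjusted p = 3.3e-05) and was higher at day 6 after withdrawal (2.86 ± 0.49, adjusted p = 0.000552) but not past the test at day 30 (0.80 ± 0.49, adjusted p = 0.732). MMP2, a matrix metalloproteinase gene, rose from 0.415 ± 0.113 to 1.68 ± 0.396 CPM at day 21 (1.99 ± 0.54, adjusted p = 0.0202). COL1A1, a collagen gene that is also among the fibroblast markers, rose from 1.03 ± 0.209 to 2.43 ± 0.541 CPM (1.24 ± 0.29, adjusted p = 0.00574) and was at -0.99 ± 0.29 at day 30 after withdrawal (adjusted p = 0.106). Both MMP2 and COL1A1 had no more than 64 counts in any library. The 9 targets had a median log2 fold change of 0.81 at day 21, which was -0.07 by the last collection. In the other lists the day 21 median was -0.12 for corepressors, 0.06 for coactivators and DNA-binding partners and 0.06 for modifying enzymes. It was -0.01 for RUNX1 targets and -0.04 for RUNX3 targets. Differences between the lists were not tested.

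Among 7 tested RUNX1 targets, CSF2, the gene of the cytokine GM-CSF, passed both thresholds. It had at most 2 counts in a control library and 2.06 ± 0.659 CPM with IL-1β at day 21 (adjusted p = 1.63e-05), and at day 30 after withdrawal it had 0 counts in all 3 previously exposed libraries. Among 8 tested RUNX3 targets, NTRK3 fell and CLDN1 rose past both thresholds. At days 6, 15 and 21 of exposure 2 of the 8 were lower at an adjusted p under 0.05, of which 1 passed both thresholds. Of all genes tested, 1.98%, 3.11% and 3.09% were lower at that adjusted p. NTRK3 encodes the neurotrophin receptor TrkC, and RUNX3 is required for neurons that carry it. It fell from 36.4 ± 1.13 to 3.40 ± 1.64 CPM at day 21 (-3.39 ± 0.50, adjusted p = 2.31e-05) and remained lower at day 30 after withdrawal, at 16.2 ± 7.26 against 73.0 ± 19.0 CPM (-2.17 ± 0.46, adjusted p = 0.0124). CLDN1, which encodes a tight junction protein, was 1.63 ± 0.28 higher on the log2 scale at day 6 (adjusted p = 0.000302) and 0.22 ± 0.28 at day 30 after withdrawal (adjusted p = 0.873).

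**Figure D5:**
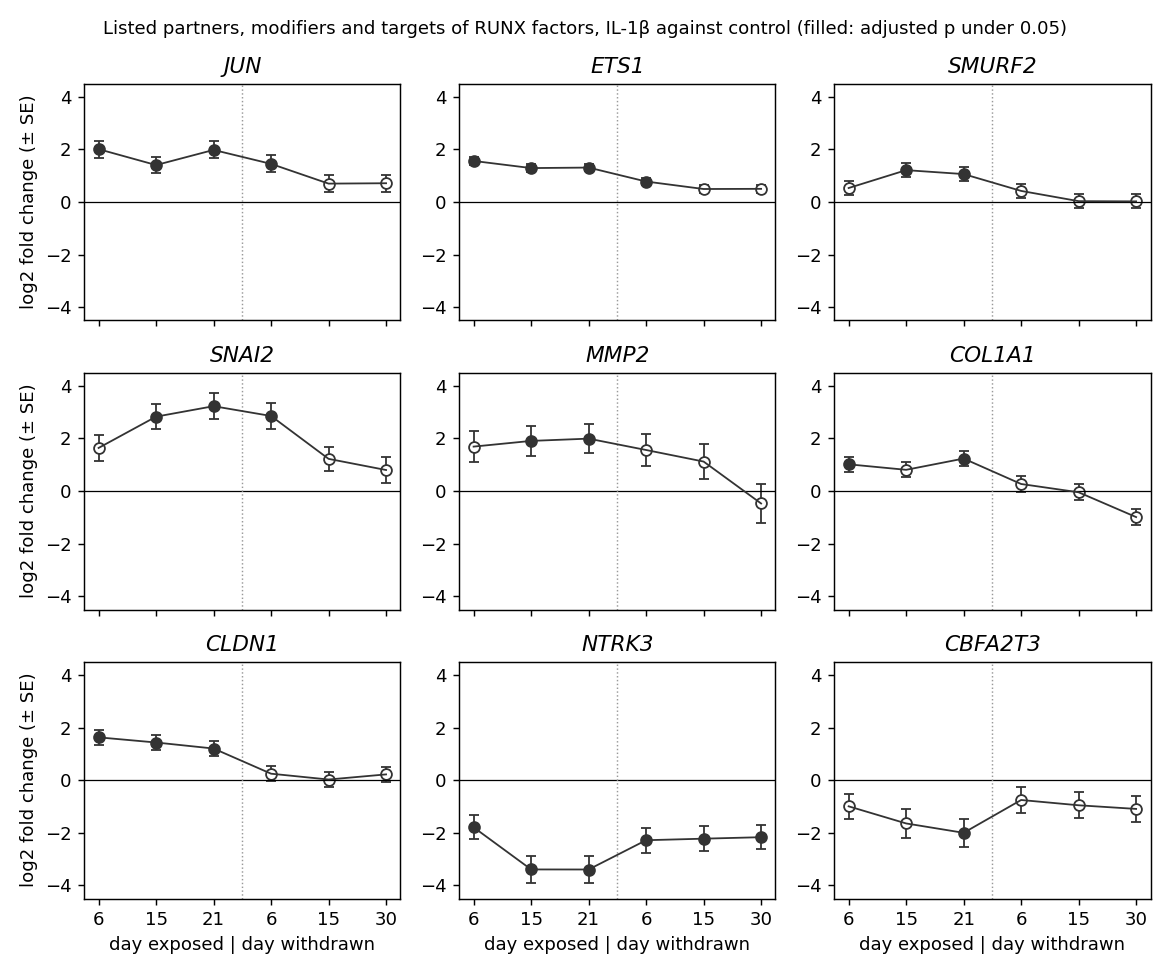
Log2 fold change of IL-1β against control (± SE) over the days of exposure and after withdrawal for 9 listed partner, modifier and target genes, filled where the adjusted p was under 0.05. JUN and ETS1 pass the test through day 6 after withdrawal, SNAI2 from day 15 of exposure to day 6 after withdrawal, and NTRK3 passes it at all 6 time points.

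The genes whose pattern over the 12 group means of log2 CPM was most like that of each gene were taken from 15362 genes with a mean of at least 1 CPM. For RUNX2 these were TRIO (r = 0.986), SH2B3 (0.984), ADAMTS12 (0.984), TNC (0.983) and ABLIM3 (0.983). ADAMTS12 encodes a secreted metalloproteinase and TNC the matrix protein tenascin C. At day 30 after withdrawal SH2B3, ADAMTS12, TNC and ABLIM3 were still higher, with log2 fold changes of 0.69 (adjusted p = 0.0166), 0.83 (0.0231), 2.60 (0.0173) and 1.83 (6.35e-05), whereas TRIO stood at 0.48 (adjusted p = 0.21). The group means of day 30 had entered the choice of these genes. Their adjusted p are therefore no separate evidence that genes like RUNX2 stayed higher. For RUNX1 the nearest genes were HTR7 (0.969), BIRC2 (0.968) and GLIPR1 (0.963), and for RUNX3 they were RAB11FIP4 (0.986), TCF3 (0.981) and RP11-292B8.1 (0.977). CBFB was most like HYCC2 (0.978), RP11-1002K11.1 (0.968) and PURB (0.966). Among the 4 genes themselves, the group means of RUNX2 correlated with those of RUNX3 at r = -0.93, of RUNX1 at 0.89 and of CBFB at 0.77. These are descriptions over 12 points that share libraries and the IL-1β contrast.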

How the data were processed

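Per the labels, total RNA of A549 cells was made into stranded mRNA libraries and sequenced as single-end reads. The authors aligned the reads to GRCh37 with TopHat2 (2.0.14; Bowtie2 2.2.5 in the submitters' processing notes) and counted them per Ensembl gene with HTSeq (0.6.1). The deposited values are these counts, not normalized. The strand setting and annotation release are not given in the sources used here. Of the 5 summary lines, which were left out, reads on no gene came to 8.48% to 18.6% and ambiguous reads to 2.62% to 4.18%. Intervals from counts would cover counting error only.

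Counts were analysed with R 4.3.3, edgeR 4.0.16 and DESeq2 1.42.0, and with Python 3.11.15. After filterByExpr, 19180 of 39471 genes with any count were kept, scaled by TMM and fitted by the quasi-likelihood model with the 12 groups as terms (24 residual degrees of freedom). Comparisons were IL-1β against control at each time point, changes of that response, and the last against the first controls. Log2 CPM used a prior count of 2, and within-library ratios a pseudocount of 0.5. No 2 libraries of the same group agreed within sampling noise. Replicate numbers were checked for pairing: 14 of 18 same-numbered pairs had deviations correlated over 0.1 (lowest -0.34, mean 0.28), all 3 pairs at day 21 (0.197 to 0.259) and at day 30 after withdrawal (0.31 to 0.464), where the replicate letters in the titles were taken as pairs. The 4 genes, the lists and the tests were chosen with earlier results of these data known. Named from each list were up to 4 genes with the largest change at day 21 among those past both thresholds at any time point, and the 5 (RUNX2) or 3 genes most like each gene.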

Additional observations from a re-analysis of the deposited data

Results flagged for a closer look

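COL1A1, a listed RUNX2 target, changed its response to IL-1β between day 21 and day 30 after withdrawal by a log2 difference of -2.22 ± 0.41 (SE), which passed the test of that difference (edgeR's quasi-likelihood test, adjusted p = 0.00406). Its level at day 21 was 1.03 ± 0.209 CPM in untreated and 2.43 ± 0.541 CPM in exposed cells, and it was 1.20 ± 0.308 CPM in previously exposed cells and 2.41 ± 0.987 CPM in the control at day 30 after withdrawal (SD, n = 3), with at most 64 counts in a library.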

How the results depend on the processing

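The log2 fold change of RUNX2 was positive under all 12 alternatives at all 6 time points, and every difference in its ratio to RUNX1, RUNX3 and CBFB kept its sign. Against both thresholds, RUNX2 passed at day 6 of exposure by total counts only (1.03), on leaving out the 11 high-mitochondrial libraries (1.14), with their mark as a covariate (1.01) and without replicate 2 (1.18), at day 15 after withdrawal by total counts only (1.13) and with the covariate (1.00), and at day 30 by total counts only (1.00). At day 6 after withdrawal it no longer passed in a separate fit of each time point (1.21, adjusted p = 0.231), and in these fits days 15 and 30 after withdrawal had adjusted p of 0.212 and 0.611. Leaving out each replicate moved RUNX2 from 0.70 to 1.18, 1.18 to 1.28 and 1.20 to 1.47 during exposure and from 1.05 to 1.30, 0.89 to 0.96 and 0.81 to 0.97 after withdrawal, with 1 replicate number fewer in each fit; without replicate 1 the adjusted p was 0.302 at day 6 and 0.07 at day 15 of exposure. Taken 1 withdrawal day at a time (days 6, 15 and 30), the ratio differences could not pass: 0.75, 0.81 and 0.79 against RUNX1, 2.18, 1.54 and 1.03 against RUNX3, and 0.95, 0.87 and 0.90 against CBFB. On leaving out the high-mitochondrial libraries RUNX2 kept 110.6% of its peak at day 6 after withdrawal.

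Values near 0 changed sign. RUNX1 at day 30 after withdrawal ranged from -0.060 to 0.15 on leaving out 1 replicate number. CBFB ranged from -0.057 to 0.13 at day 15 and from -0.083 to 0.013 at day 30 in the same way, and it was -0.075 at day 15 and 0.024 at day 30 without the high-mitochondrial libraries and 0.087 at day 30 by total counts only. At day 6 of exposure RUNX1 had an adjusted p of 0.0135 with the covariate and 0.0371 by total counts only, and RUNX3 had 0.00273 with the covariate and 0.0244 in a separate fit. In the fit with a replicate block RUNX2 stood at 0.95, 1.20 and 1.36 during exposure and 1.19, 0.95 and 0.89 after withdrawal, and the block changed no call of the 4 genes at any time point. Permuting within pairs gave p = 0.00391 for all 6 ratio tests (exact permutation), the smallest p that these pairs allow. It again counts libraries of different days as independent. The counts of listed genes past both thresholds at days 6, 15 and 21 of exposure and 6, 15 and 30 after withdrawal, 6, 8, 10, 3, 1 and 1, were 3, 3, 5, 0, 0 and 0 without replicate 1. They were 5 at day 15 of exposure and 0 at all withdrawal days in separate fits, 6 at day 21 with at least 10 counts in every sample, and 1, 0 and 0 after withdrawal without replicate 2. On leaving out the high-mitochondrial libraries they were 5 at day 6 and 0 at day 15 after withdrawal. What caused these shifts was not tested.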
